A study of Homo sapiens with 30 samples.

Results

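The response of breast cancer cells to bone morphogenetic protein 4 (BMP4) was examined 6 h after its addition in 5 lines of human breast cancer cells, all established in culture. They were HCC1419, MDA-MB-361, ZR-75-30, SK-BR-3 and HCC1954. The 6 h arrays were 5 of the 30 two-colour Agilent whole genome arrays of the series, 1 for each line, chosen by their labelled time point, and each was set against the 30 min array of the same line. On every array the Cy5 channel held RNA of cells treated with recombinant human BMP4 and the Cy3 channel RNA of the same line treated with vehicle for the same time. Treatments were made in triplicate and the cells were pooled, so that each channel holds 1 pooled RNA, and the dyes were not swapped. The ratio is the log2 of BMP4 over vehicle on 1 array, and the difference is the ratio at 6 h minus the ratio at 30 min of the same line. A dye bias of a probe that is equal on both arrays cancels in that difference. A difference in a bulk ratio cannot tell a change of RNA per cell from a change in the share of cells that carry it.

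BMPs are secreted ligands of the transforming growth factor beta (TGF-beta) superfamily. They bind type I and type II serine-threonine kinase receptors, which phosphorylate the receptor SMADs. These join SMAD4, move to the nucleus and bind DNA at GC-rich and at AGAC-type sites near target genes. The best known targets are the inhibitor of DNA binding (ID) genes and the inhibitory SMADs, which dampen the pathway in a negative feedback.

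Between 58.9% and 70.6% of the 41000 probes rose well above background in Cy3 on the 10 arrays and between 57.0% and 70.8% in Cy5. The slope of the spike-in controls, as given by the scanner software and 1 where ratios are measured in full, lay between 0.59 and 0.82. The software's ratios were thus compressed, and no slope was measured for the ratios as processed here. The SK-BR-3 array of 30 min stood apart, with 350 probes at a ratio of 2-fold or more against 5 to 24 on the other 30 min arrays. Both arrays of a line were scanned on the same day in 2 lines, HCC1419 and MDA-MB-361, and on different days in the other 3. The epithelial markers KRT8, KRT18, KRT19, EPCAM, ERBB2 and GATA3 were well above background in Cy3 on all 30 arrays and CDH1 on 24. Of the leukocyte markers PTPRC was so on 0 of 30 and CD3E and CD14 on all 30. Of the fibroblast markers DCN and PDGFRB were so on 0, COL1A2 on 1, COL3A1 on 5 and COL1A1 on 28, and the endothelial marker VWF was so on all 30.

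With limma over all 30 arrays and the cell line as a block, 12 of 41000 probes (0.0293%) were higher at 6 h than at 30 min at an adjusted p under 0.05, and 0 were lower (0%). At an unadjusted p under 0.05 limma gave 612 higher and 404 lower probes. The 12 probes had 11 names. They were the 4 ID genes, with ID2 measured by 2 probes, the inhibitory SMAD gene SMAD6, SAMD11, GPER1, BMF, ACOT11 and 2 transcribed sequences without a gene symbol, CN479126 and THC2701797. All 12 were higher at 6 h in 5 of 5 lines, and all were well above background in both channels of all 30 arrays. Their mean differences lay between 0.59 and 1.36, and 6 of the 12 were 2-fold or more. The count rested on single lines, as it was 0 without MDA-MB-361, 1 without HCC1419, 6 without SK-BR-3, 7 without HCC1954 and 12 without ZR-75-30. With no cell line block limma called 2 probes higher, and it called 0 with the 10 arrays of both time points alone (964 higher at an unadjusted p under 0.05) or with 1 factor per array instead of loess (158).

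**Figure D1:**
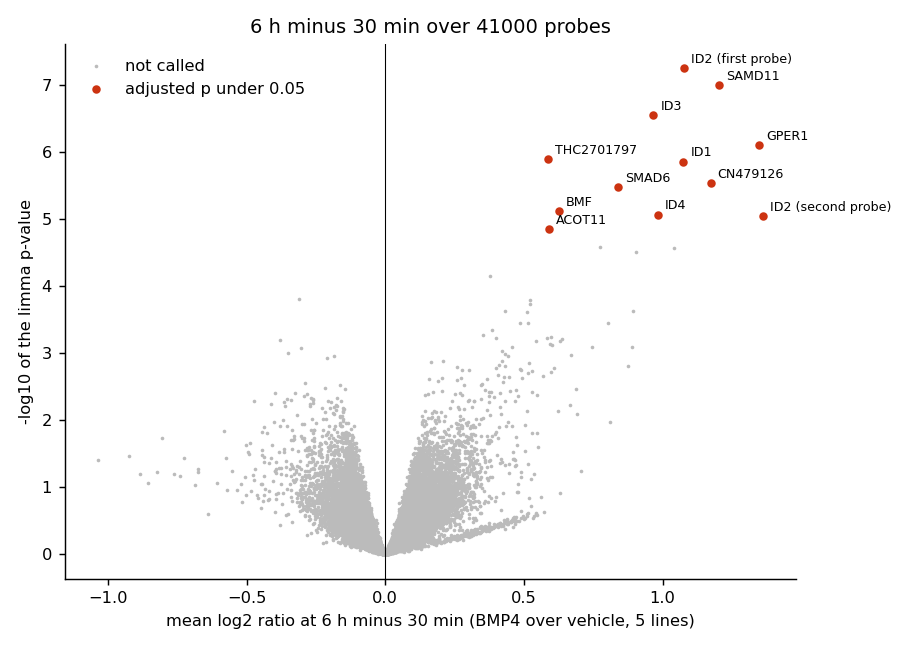
The mean difference in log2 ratio between 6 h and 30 min over 5 lines (x axis) is plotted against −log10 of the unadjusted limma p-value (y axis) for all 41000 probes. The 12 called probes, in red, all lie to the right of 0, between 0.59 and 1.36.

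The promoters of the called genes are shown because the receptor SMADs act through short DNA sites. Promoter sequences of RefSeq (GRCh38.p14, the 250 bases before the start of the gene) were matched for 9 of the 11 names. The letters AGAC or GTCT, the same site on either strand, occurred in at least 1 promoter of 8 of the 9 genes and in 77.5% of all 34788 distinct promoters of that length. The palindrome GTCTAGAC, in which the site on each strand meets the other, occurred in the SMAD6 promoter alone among the 9 genes and in 0.178% of all promoters. The GC-rich letters GGCGCC, which are their own reverse complement, occurred only in the promoter of SAMD11 among these genes, with 3 matches, and in 16.4% of all promoters. Printed 5′ to 3′ are the promoters of ID1, ID2, ID3, SMAD6 and SAMD11, with every match to AGAC, GTCT or GGCGCC in capitals.
ID1 (chr20:31605039-31605288, plus strand): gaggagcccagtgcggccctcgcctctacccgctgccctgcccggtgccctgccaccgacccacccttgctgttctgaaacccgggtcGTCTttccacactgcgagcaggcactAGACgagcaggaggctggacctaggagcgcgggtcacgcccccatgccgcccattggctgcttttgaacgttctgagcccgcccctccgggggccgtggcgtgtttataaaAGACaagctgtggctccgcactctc
ID2 (chr2:8681806-8682055, plus strand): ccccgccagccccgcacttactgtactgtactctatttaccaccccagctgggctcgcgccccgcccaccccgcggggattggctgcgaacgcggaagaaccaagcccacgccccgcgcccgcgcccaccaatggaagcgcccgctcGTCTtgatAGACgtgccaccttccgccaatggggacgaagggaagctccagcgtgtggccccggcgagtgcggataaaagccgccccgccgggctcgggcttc
ID3 (chr1:23559502-23559751, minus strand): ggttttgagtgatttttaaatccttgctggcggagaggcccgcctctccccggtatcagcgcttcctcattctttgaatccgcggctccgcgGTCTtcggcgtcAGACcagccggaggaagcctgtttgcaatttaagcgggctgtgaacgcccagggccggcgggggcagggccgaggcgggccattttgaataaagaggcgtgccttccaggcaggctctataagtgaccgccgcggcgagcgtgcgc
SMAD6 (chr15:66701986-66702235, plus strand): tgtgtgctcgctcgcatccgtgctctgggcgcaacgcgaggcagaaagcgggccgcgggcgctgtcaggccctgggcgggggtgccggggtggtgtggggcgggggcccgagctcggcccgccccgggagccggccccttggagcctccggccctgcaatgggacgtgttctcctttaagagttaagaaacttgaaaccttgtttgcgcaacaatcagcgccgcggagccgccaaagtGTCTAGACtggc
SAMD11 (chr1:925481-925730, plus strand): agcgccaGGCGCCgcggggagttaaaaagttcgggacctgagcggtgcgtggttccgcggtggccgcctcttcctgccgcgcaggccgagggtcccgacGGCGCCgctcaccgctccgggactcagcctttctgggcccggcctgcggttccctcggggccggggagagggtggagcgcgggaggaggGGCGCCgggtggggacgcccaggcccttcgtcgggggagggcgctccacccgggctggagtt

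In the ID1, ID2 and ID3 promoters a GTCT was followed by an AGAC after 22, 4 and 8 bases, and in SMAD6 both lay end to end near the start of the gene. Of the promoters not printed, one of GPER1 held such a pair 155 bases apart, and those of ID4, ACOT11 and BMF held none. The share of all promoters with such a pair was not counted, so that the pairs set no gene apart. SAMD11 held no AGAC in this window. A match describes the letters only and shows no binding.

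The ID genes code for helix-loop-helix proteins without a DNA-binding domain, which hold E proteins off DNA. All 4 had a higher ratio of BMP4 over vehicle at 6 h than at 30 min. For ID1 the mean signal of the vehicle-treated cells was also lower at 6 h, as given below for each channel. The ID1 probe (chromosome 20, 29657819 to 29657878, hg18) had ratios at 6 h of 1.77 in HCC1419, 1.68 in MDA-MB-361, 1.06 in ZR-75-30, 1.06 in SK-BR-3 and 1.90 in HCC1954, and at 30 min of 0.51, 0.29, 0.56, 0.35 and 0.39. ID1 was thus above 0 already at 30 min, its ratios of both time points did not overlap, and SK-BR-3 and ZR-75-30 were the low lines at 6 h. Its difference was 1.08 ± 0.17 (SE, n = 5 lines, limma adjusted p = 0.00942), a 2.11-fold rise in the ratio.

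ID2 gave the smallest p of all 41000 probes. The first of its 2 probes (chromosome 2, 8740093 to 8740481) had ratios at 6 h of 1.06 in HCC1419, 1.36 in MDA-MB-361, 0.93 in ZR-75-30, 0.99 in SK-BR-3 and 1.54 in HCC1954, against −0.16 to 0.31 at 30 min. The difference was 1.08 ± 0.14 (SE, limma adjusted p = 0.00201). The second probe (8741733 to 8741792) gave 1.36, 1.78, 1.64, 1.52 and 2.10 in the same order at 6 h and 0.09 to 0.74 at 30 min. Its difference was 1.36 ± 0.24 (adjusted p = 0.0331), the largest of the 12, and was highest in HCC1954 (1.94) and lowest in ZR-75-30 (0.90). Both probes placed HCC1954 highest and ZR-75-30 lowest, and for neither did the 6 h ratios overlap those of 30 min.

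The ID3 probe (chromosome 1, 23758253 to 23758312) had differences of 1.05 in HCC1419, 1.35 in MDA-MB-361, 0.65 in ZR-75-30, 0.51 in SK-BR-3 and 1.28 in HCC1954. The mean was 0.97 ± 0.14 (SE, limma adjusted p = 0.00382), and the 5 ratios at 6 h (0.34 to 1.56) all lay above those at 30 min (−0.17 to 0.21). ID4 (chromosome 6, 19947489 to 19947548) had differences of 1.31, 1.59, 0.29, 0.80 and 0.94 in the same order of lines, with a mean of 0.98 ± 0.17 (adjusted p = 0.0331). Here the time points overlapped, since ZR-75-30 reached 0.46 at 6 h while SK-BR-3 stood at 0.64 at 30 min. For ID1, ID2 and ID4 the smallest rise of the 5 lines was that of ZR-75-30, and for ID3 it was that of SK-BR-3.

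The transcribed sequence CN479126 was measured by a probe (chromosome 20, 29657031 to 29657090) 788 bases from that of ID1 and on the opposite strand. Whether that probe lies within the ID1 gene or beside it was not examined. Its differences were 0.81 in HCC1419, 1.69 in MDA-MB-361, 0.82 in ZR-75-30, 1.49 in SK-BR-3 and 1.06 in HCC1954, with a mean of 1.17 ± 0.19 (SE, limma adjusted p = 0.0169). Its ratios at 30 min, which ran from −0.91 in SK-BR-3 to 0.56 in MDA-MB-361, were the most spread of the 12 probes and overlapped those at 6 h. The differences of CN479126 were highest in MDA-MB-361 and SK-BR-3, those of ID1 in HCC1954 and MDA-MB-361. That of SK-BR-3 uses the 30 min array that stood apart from the others.

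**Figure D2:**
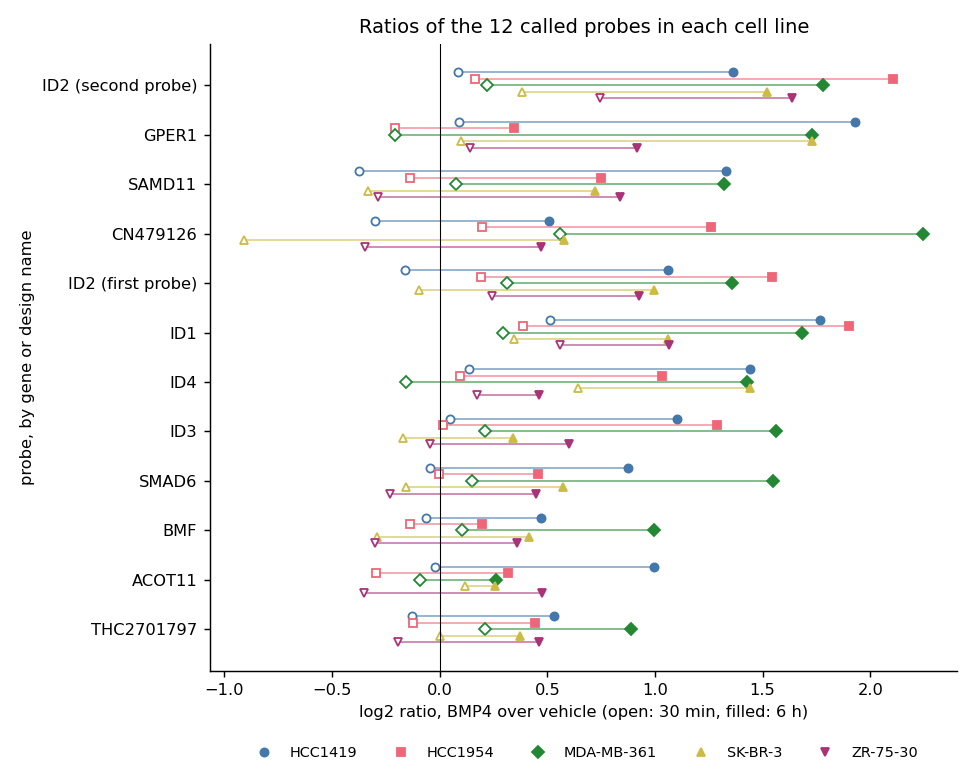
The log2 ratio of BMP4 over vehicle (x axis) is plotted for the 12 called probes (y axis) at 30 min (open) and 6 h (filled) in each of the 5 lines, with a line joining both arrays of a line. Every filled symbol lies to the right of its open one. For 10 of the 12 probes all 6 h ratios lie above all 30 min ratios, the exceptions being CN479126 and ID4.

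SMAD6, an inhibitory SMAD that blocks signaling of BMP receptors, was measured by a probe that spans an exon junction (chromosome 15, 64795864 to 64860421). Its ratios at 6 h were 0.88 in HCC1419, 1.55 in MDA-MB-361, 0.45 in ZR-75-30, 0.57 in SK-BR-3 and 0.46 in HCC1954, and at 30 min they lay between −0.23 and 0.15. MDA-MB-361 was the highest line and HCC1419 the next, and the other 3 lay close together. The difference was 0.84 ± 0.14 (SE, limma adjusted p = 0.0169). SMAD7, the other inhibitory SMAD, did not pass the test (0.31 ± 0.11, adjusted p = 1.00). Its differences were 0.61, 0.44, 0.18, −0.06 and 0.38 in the same order of lines, and its mean ratio was highest at 1 h (0.65) and 0.39 at 6 h.

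Over the 18 genes listed as BMP targets, 5 were called higher at 6 h (ID1 to ID4 and SMAD6) and 0 lower, 12 had an unadjusted p under 0.05 in the direction of a rise, and 10 were higher in all 5 lines. Over all probes, 12 of 41000 were called higher (0.0293%), 612 of 41000 had such an unadjusted p and 3.07% were higher in all 5 lines. The median difference of the list was 0.47 and that of all probes 0.01. The list was chosen with earlier results of these data known. It holds genes that the study ranked high on these same arrays, among them ID1 to ID4 and HEY1. The contrast with all probes is therefore a description only. Not called but higher in 5 of 5 lines were HEY1, a repressor of the hairy family (0.67 ± 0.18, SE, limma adjusted p = 0.978), the homeobox gene DLX3 (0.58 ± 0.15, 0.774), the receptor SMAD gene SMAD9 (0.53 ± 0.20, 1.00), the pseudoreceptor gene BAMBI (0.47 ± 0.15, 1.00) and the basic helix-loop-helix gene ATOH8 (0.47 ± 0.15, 1.00). The difference of SMAD9 was 1.58 in MDA-MB-361 and 0.10 to 0.48 in the other lines, and that of BAMBI was 1.02 in SK-BR-3 and 0.10 in MDA-MB-361. DLX3 had a second, dimmer probe with a difference of 0.00. MSX1, RUNX2, SMURF1, DLX5, HES1 and KLF10 had differences between −0.11 and 0.20. The median ratio of the 18 genes was 0.09 at 30 min and grew with each later time point (0.32, 0.40, 0.46, 0.52 and 0.62), so that for the list as a whole 6 h was not its highest point.

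**Figure D3:**
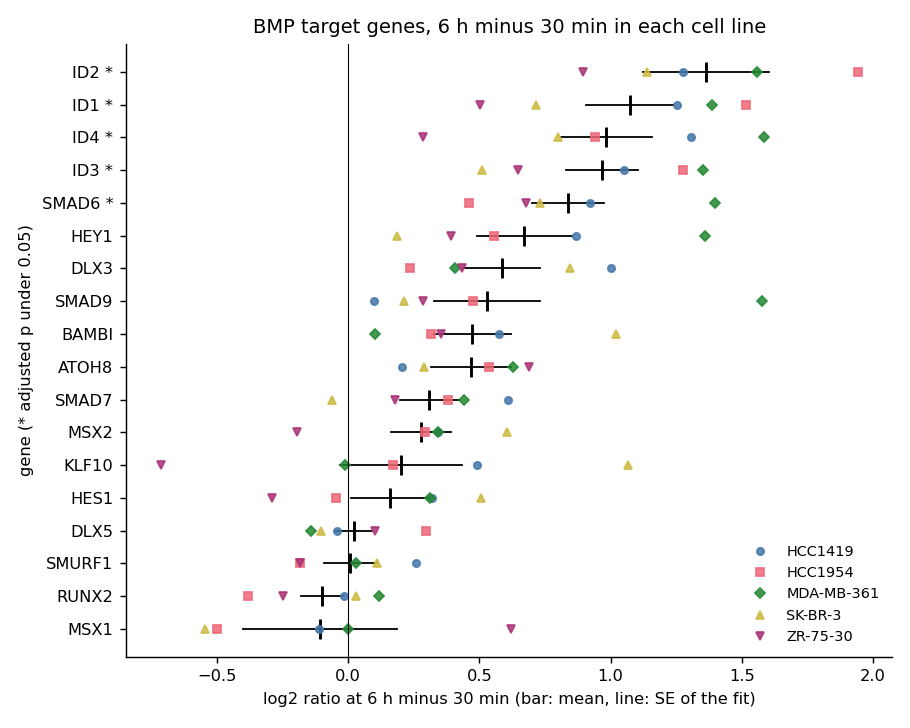
Differences in log2 ratio between 6 h and 30 min (x axis) are plotted for the 18 BMP target genes (y axis), with a coloured symbol for each line, a black bar at the mean and a line for its SE. The 5 genes marked with an asterisk passed the test, and 10 of the 18 have all 5 symbols to the right of 0.

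SAMD11, which codes for a protein with a sterile alpha motif, was the second most significant gene. Its probe (chromosome 1, 869311 to 869370) had ratios at 6 h of 1.33 in HCC1419, 1.32 in MDA-MB-361, 0.84 in ZR-75-30, 0.72 in SK-BR-3 and 0.75 in HCC1954, and at 30 min of −0.37, 0.08, −0.29, −0.33 and −0.14. The ratios at 30 min were below 0 in 4 of the 5 lines, and those at 6 h formed a high pair, HCC1419 and MDA-MB-361, and 3 lower lines. The difference was 1.20 ± 0.16 (SE, limma adjusted p = 0.00201), with no line under 0.89.

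GPER1 (GPR30 in the array design), a G protein-coupled receptor for oestrogen, had the widest range between lines. Its probe (chromosome 7, 1099862 to 1099921) had ratios at 6 h of 1.93 in HCC1419, 1.73 in MDA-MB-361, 0.92 in ZR-75-30, 1.73 in SK-BR-3 and 0.35 in HCC1954, while those at 30 min lay between −0.21 and 0.14. At 6 h HCC1419, MDA-MB-361 and SK-BR-3 were high, ZR-75-30 lay in between and HCC1954 was low. The difference was 1.35 ± 0.20 (SE, limma adjusted p = 0.00801), a 2.54-fold rise.

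BMF, a BH3-only member of the BCL2 family that promotes cell death, rose less (chromosome 15, 38167742 to 38167801). The differences were 0.54 in HCC1419, 0.89 in MDA-MB-361, 0.66 in ZR-75-30, 0.71 in SK-BR-3 and 0.34 in HCC1954, with a mean of 0.63 ± 0.11 (SE, limma adjusted p = 0.0331). ACOT11, which codes for an acyl-CoA thioesterase, was nearest to the threshold (0.59 ± 0.11, adjusted p = 0.0478). Its brightest probe (chromosome 1, 54848262 to 54848321) had differences of 1.02, 0.35, 0.83, 0.14 and 0.61 in the same order, with HCC1419 high and SK-BR-3 low. Of its other 2 probes, 1 gave 0.16 ± 0.07 and 1, which was well above background on 0 arrays, gave 0.00, so that the call for ACOT11 rests on 1 of 3 probes.

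The unnamed sequence THC2701797 (chromosome 12, 52615593 to 52615652, minus strand) had the smallest spread between lines of the 12 probes. It gave differences of 0.66 in HCC1419, 0.68 in MDA-MB-361, 0.66 in ZR-75-30, 0.37 in SK-BR-3 and 0.57 in HCC1954, with a mean of 0.59 ± 0.09 (SE, limma adjusted p = 0.00942). The nearest other probe, 10708 bases away on the plus strand, was that of the homeobox gene HOXC13, which was not called (0.64 ± 0.16, adjusted p = 0.774).

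Probes with the same sign in all lines were also counted, without a test. Of the 40678 probes with a difference in every line, 1247 (3.07%) were higher at 6 h in 5 of 5 lines and 950 (2.34%) lower. Neither share exceeds the 3.125% that equally likely signs would give, so that the same sign in 5 lines does not by itself mark a gene as shared. No probe rose 2-fold or more in all 5 lines. In 4 lines 3 probes did (0.00737%), namely both probes of ID2 and that of SAMD11. A rise of at least 1.5-fold in every line was seen for 5 probes (0.0123%), both of ID2 and those of SAMD11, CN479126 and RHOBTB3, and a fall of that size in every line for 0. The probes of ID1, ID3, ID4 and SMAD6 fell short of 1.5-fold in at least 1 line.

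Some genes missed the threshold in spite of large differences. RHOBTB3 had differences of 0.60 in HCC1419, 1.22 in MDA-MB-361, 0.68 in ZR-75-30, 0.61 in SK-BR-3 and 0.76 in HCC1954 (mean 0.77 ± 0.15, SE, limma adjusted p = 0.0778). DUSP2, a phosphatase of MAP kinases, had 1.49, 1.75, 0.78, 1.20 and 0.00 in the same order (1.04 ± 0.20, 0.0778). HCC1954 thus gave no difference for DUSP2, with a ratio of 0.04 at 6 h and 0.05 at 30 min. The kinase gene MAP3K5 (0.89 ± 0.21, adjusted p = 0.453) and EDN2, an endothelin ligand (0.75 ± 0.19, 0.836), were higher in 5 of 5 lines but ranged from 0.34 to 1.68 and from 0.27 to 1.68 between lines. MDA-MB-361 was the highest line for all 4 of these genes. ID1 to ID4 and SAMD11, all called here, were among the genes that the study ranked high on these same arrays, so that its ranking is no independent evidence of direction. That ranking counted arrays of any line and time point with a changed ratio of BMP4 over vehicle. It is thus a measure unlike the difference between 6 h and 30 min. Over 12 other measured genes from the top of that ranking, the median of the mean ratios was 0.12 at 30 min and 0.22 at 6 h. Of these 12 genes, GPER1 was called, while DUSP2, MAP3K5, EDN2 and HEY1 had differences between 0.67 and 1.04 without a call. The other 7 had small differences, with −0.09 ± 0.12 (SE) for PTPRG, a receptor tyrosine phosphatase, 0.09 ± 0.07 for the olfactory receptor gene OR2W3, 0.07 ± 0.08 for GNRHR, the receptor of gonadotropin-releasing hormone, and −0.04 to 0.03 for C12orf42, APOC2, ZFP41 and DNER. Except for ZFP41, these 7 were well above background in either channel on 2 to 15 of the 30 arrays. C12orf42, at 0.03 here, had 0.99 in the authors' series matrix (unadjusted p = 0.00319 and adjusted p = 1.00 in limma).

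No fall was called. The 5 falls with the smallest p were TGFBR3, a coreceptor of TGF-beta (−0.31 ± 0.07, SE, limma adjusted p = 0.366), RGS16, a regulator of G protein signaling (−0.38 ± 0.10, 0.774), LRIG1, which restrains ERBB receptors (−0.30 ± 0.08, 0.863), TENT5C, a nucleotidyltransferase gene (−0.35 ± 0.09, 0.956), and MROH9 (−0.19 ± 0.05, 0.978). The probes of TGFBR3 and MROH9 were well above background in Cy3 on only 5 and 1 of the 30 arrays. For RGS16 the ratios at 6 h were narrow, with −0.34 in HCC1419, −0.59 in MDA-MB-361, −0.48 in ZR-75-30, −0.54 in SK-BR-3 and −0.47 in HCC1954, and at 30 min MDA-MB-361 stood at −0.40 against −0.06 to 0.01 in the other lines. A second RGS16 probe gave −0.15 ± 0.11.

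The level at 6 h was then set against those before and after it. Of the 12 probes, the mean ratio was highest at 3 h for 3, at 6 h for 4, at 12 h for 1 and at 24 h for 4. As a share of the rise from 30 min to 6 h on the log2 scale, the 12 probes stood at a median of 61.3% at 1 h and 94.1% at 3 h, and later at 92.9% (12 h) and 94.9% (24 h). These shares use the same 6 h and 30 min arrays that chose the probes and are a description only. ID1 and ID3 stood at 84.8% and 86.0% at 1 h. SMAD6 stood at 17.5%, GPER1 at 23.4%, SAMD11 at 30.4% and ID4 at 32.0% at 1 h, and at 3 h these 4 were at 88.8%, 60.1%, 79.0% and 101%. ACOT11 was the latest. It stood at 33.5% at 3 h and passed its 6 h level afterwards, with 124% at 12 h and 147% at 24 h.

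In mean ratios over the 5 lines, ID1 was at 0.42 ± 0.11 (SD) at 30 min and had reached 1.33 ± 0.51 by 1 h and 1.37 ± 0.45 by 3 h. After 6 h it was at 1.47 ± 0.30 (12 h) and 1.42 ± 0.38 (24 h). SMAD6 went from −0.06 ± 0.15 at 30 min and 0.09 ± 0.27 at 1 h to 0.69 ± 0.23 at 3 h and 0.78 ± 0.46 at 6 h, and was at 0.67 ± 0.46 and 0.64 ± 0.45 afterwards. From 3 h on, the means of either gene differed by less than the SD between lines. That SD holds the differences between lines, so that it does not measure a change within lines. GPER1 was slower, with 0.30 ± 0.17 at 1 h and 0.79 ± 0.56 at 3 h. It reached 1.33 ± 0.67 at 6 h and was then at 1.42 ± 0.81 (12 h) and 1.19 ± 0.47 (24 h).

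**Figure D4:**
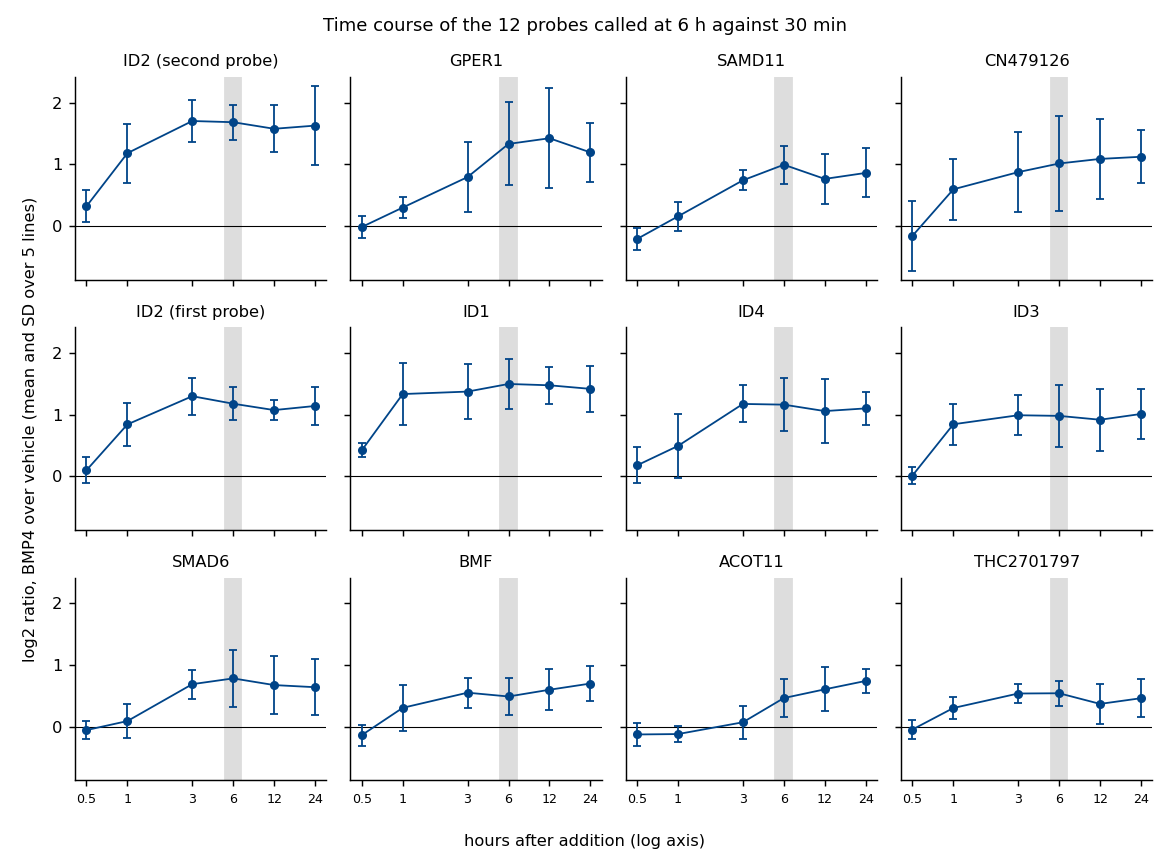
Mean log2 ratio of BMP4 over vehicle with its SD over 5 lines (y axis) is plotted against time after addition in hours on a log axis (x axis) for the 12 called probes, with 6 h shaded. The curves of ID1, ID2 and ID3 are near their 6 h level by 1 to 3 h, and that of ACOT11 is still higher at 24 h (0.74) than at 6 h (0.46).

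Between 6 h and 12 h the 12 probes differed by −0.23 to 0.14, with a median of −0.08, and for all 12 the unadjusted 95% confidence interval of the difference held 0. These intervals reached from −0.60 to 0.51 at their widest, so that changes of that size remained possible. From 6 h to 24 h the differences were −0.14 to 0.28. The interval held 0 for 11 probes and lay above 0 for ACOT11 (0.28, 0.06 to 0.50). From 3 h to 6 h it held 0 for 10 probes and lay above 0 for GPER1 (0.54, 0.12 to 0.95) and ACOT11 (0.39, 0.17 to 0.61). From 1 h to 6 h all 12 were higher, and the interval lay above 0 for 9 of them, the other 3 being ID1, ID3 and BMF. After adjustment over all probes limma called none of the 12 in any of these 4 comparisons. The 12 probes were chosen for their rise on the same 6 h arrays, which can raise the 6 h side of each comparison. These counts and intervals are therefore a description only.

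Across all 41000 probes, limma called 0 (0%) in either direction between 6 h and any of 1 h, 3 h, 12 h and 24 h. At an unadjusted p under 0.05 it gave 1165 higher and 945 lower probes at 6 h than at 1 h, and 314 higher and 508 lower at 6 h than at 3 h. At 12 h 304 were higher and 252 lower than at 6 h, and at 24 h 841 were higher and 618 lower. Against 30 min the same fit called 1 probe higher at 1 h (0.00244%) and 8 at 3 h (0.0195%). The later time points had 16 (12 h, 0.039%) and 60 (24 h, 0.146%), and 6 probes were lower at 24 h (0.0146%). These comparisons share the 30 min arrays with that of 6 h. Counts of calls were not tested against each other.

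The probes with the smallest p in these comparisons, none of them called, named both early and late genes. Against 1 h, RHOBTB3 (0.88 ± 0.15, SE), SAMD11 (0.84 ± 0.16) and ACOT11 (0.58 ± 0.11) were higher at 6 h, and a probe of the corepressor gene BCOR (−0.99 ± 0.18) and of SOCS3, an inhibitor of JAK/STAT signaling (−0.51 ± 0.09), were lower, each at a limma adjusted p of 0.186. The mean ratio of that BCOR probe was 1.18 ± 0.40 (SD) at 1 h and 0.19 ± 0.31 at 6 h, and that of SOCS3 0.70 ± 0.29 and 0.19 ± 0.15. Another BCOR probe differed by −0.01 ± 0.13 (SE) and another SOCS3 probe, well above background on 14 of 30 arrays, by −0.08 ± 0.06. The transcription factor gene OVOL2 was lower at 6 h than at 3 h (−0.74 ± 0.15, adjusted p = 1.00), with mean ratios of 0.29 ± 0.14 (SD) and −0.44 ± 0.22. From 6 h to 24 h the calcium-binding protein gene S100P had a difference of 0.72 ± 0.12 (SE, adjusted p = 0.0606), the unnamed sequence AK024898 0.46 ± 0.07 (0.0606) and LXN, a carboxypeptidase inhibitor gene, 0.75 ± 0.14 (0.159). S100P was at 0.47 ± 0.29 (SD) at 6 h and 1.19 ± 0.32 at 24 h.

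The lines differed in the size of the response. Over the 12 probes the median difference was 1.37 in MDA-MB-361, 1.14 in HCC1419, 0.91 in HCC1954, 0.76 in SK-BR-3 and only 0.68 in ZR-75-30. A difference of 2-fold or more was seen for 9 probes in MDA-MB-361, 8 in HCC1419, 5 in SK-BR-3, 5 in HCC1954 and 1 in ZR-75-30, the last being SAMD11. MDA-MB-361 had the largest difference for 7 of the 12 probes and the smallest for 0, and HCC1954 and ZR-75-30 each had the smallest for 4. With 1 array for each line and time point, differences between lines at 6 h could not be tested. All 12 differences were larger on average in HCC1419 and MDA-MB-361, whose arrays of 30 min and 6 h shared a scan day, than in the other 3 lines. The mean was 1.32 against 0.91 for ID1, 1.13 against 1.04 for the first ID2 probe, 1.89 against 0.99 for GPER1 and 1.16 against 0.62 for SMAD6. With a block for each combination of cell line and scan day limma called 4 probes higher and 0 lower (610 and 313 at an unadjusted p under 0.05). In the other 3 lines the arrays of 30 min and 6 h then fall in different blocks and are not compared directly. Cell line and shared scan day cannot be told apart here.

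Each channel was also followed by itself, after the mean intensity of both channels had been quantile normalized between arrays. These values compare signals on different arrays and carry more array noise than the ratios. The Cy5 signal of the BMP4-treated cells was higher at 6 h than at 30 min in 5 of 5 lines for 7 of the 12 probes and in 4 lines for 5. For 9 probes the Cy3 signal of the vehicle-treated cells differed by at most 0.2 on average. The other 3 were ID1 (−0.74 ± 0.51, SD, n = 5 lines), the second ID2 probe (−0.58 ± 0.46) and CN479126 (−0.52 ± 0.70). In vehicle-treated cells ID1 differed by −1.02 in HCC1419, −0.59 in MDA-MB-361, 0.10 in ZR-75-30, −1.10 in SK-BR-3 and −1.06 in HCC1954, and in BMP4-treated cells by 0.23, 0.79, 0.60, −0.38 and 0.45. In 4 of 5 lines the ID1 signal of the vehicle-treated cells was thus lower at 6 h, and by more than the signal of the BMP4-treated cells was higher in HCC1419 and HCC1954. For SAMD11 the Cy3 signal differed by −0.03 ± 0.39 and the Cy5 signal by 1.17 ± 0.56. RGS16 was lower in both channels in 5 of 5 lines, by −0.86 ± 0.63 in Cy3 and −1.24 ± 0.62 in Cy5.

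**Figure D5:**
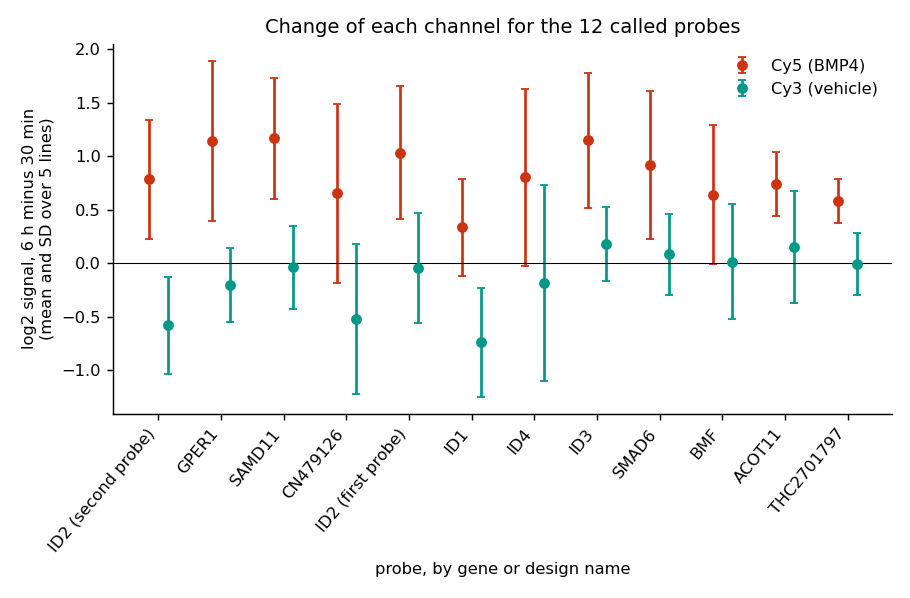
The change in log2 signal between 30 min and 6 h (y axis, mean and SD over 5 lines) is plotted for each called probe (x axis), in red for the Cy5 channel (BMP4) and in green for the Cy3 channel (vehicle). The Cy5 means all lie above 0, and the Cy3 means of ID1, CN479126 and the second ID2 probe lie more than 0.5 below it.

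The other parts of the pathway and related gene groups were counted in the same way. With 0.0293% of all probes called, a list of this size would hold no call at the share over all probes, so that 0 calls set none of these lists apart. Of 12 BMP ligands and antagonists, 12 BMP and TGF-beta receptors and 5 genes of receptor SMADs and SMAD4, 0 passed the test, with median differences of −0.02, 0.04 and −0.01. At an unadjusted p under 0.05 in limma, these 3 lists held 0, 0 and 1 higher genes and 1, 0 and 0 lower, beside 612 higher and 404 lower of all 41000 probes. Of the 9 genes of the TGF-beta type, which respond to the other receptor SMADs, 0 were called and 2 had an unadjusted p under 0.05, the SMAD corepressor gene SKIL (0.51 ± 0.15, SE) and PMEPA1 (0.30 ± 0.13), both higher in 5 of 5 lines. In 9 steroid and ERBB receptor genes 1 was called (GPER1).

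None of the 14 genes of the MAP kinase pathway, 12 of the Notch pathway, 13 immediate early genes, 10 CDK inhibitors and G1 cyclins, 21 proliferation genes and 9 genes of epithelial-mesenchymal transition were called by limma at 6 h, and at an unadjusted p under 0.05 these lists held 2, 1, 1, 2, 0 and 0 higher and 0 lower genes, again beside 612 and 404 of 41000 probes. JUNB, an immediate early transcription factor, had a difference of 0.43 ± 0.14 (SE) and was higher in 5 of 5 lines. The CDK inhibitor gene CDKN1A had 0.41 ± 0.19, with 1.11 in HCC1419 and −0.04 to 0.52 in the other lines. The median difference of the proliferation genes was −0.03, and their median ratio was −0.06 at 6 h and −0.33 at 24 h.

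Tested against 0, the ratio at 6 h was called for 57 probes higher (0.139%) and 15 lower (0.0366%) with BMP4, but without a dye swap these counts contain the dye bias of each probe. They also moved with the processing, to 5 and 0 with 1 factor per array, 2 and 0 with the 6 h arrays alone, 172 and 83 with array weights and 168 and 44 with a block for cell line. They were 21 to 45 and 2 to 7 when 1 line was left out. Of the 12 probes above, CN479126, BMF and ACOT11 were not called against 0 (adjusted p of 0.14, 0.148 and 0.101). MAP3K5 (1.13, adjusted p = 0.00144), RHOBTB3 (0.71, 0.013) and HEY1 (0.82, 0.0175) were called higher against 0, and RGS16 (−0.49, 0.00884) and TENT5C (−0.36, 0.0221) lower. The 2-fold criterion of the study was also applied to the ratios as processed here. At 6 h, 79 probes in HCC1419, 132 in MDA-MB-361, 18 in ZR-75-30, 35 in SK-BR-3 and 11 in HCC1954 had a ratio of 2-fold or more, with a mean of 55.0 probes per array. The authors' series matrix was processed differently. In it the same criterion gave 715, 1037, 486, 1085 and 814 probes in the same order, a mean of 827.4, and SK-BR-3 in place of MDA-MB-361 was the highest line. The cause of this gap was not tested.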

How the data were processed

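RNA of 5 breast cancer cell lines at 6 time points was measured on 30 two-colour arrays, 5 of them at 6 h. The authors scanned the slides and extracted spot values with Agilent's Feature Extraction software (9.5.1.1 in the file headers), and probe coordinates are those of hg18. Per the file headers, the mean signal and the median local background of each spot are intensity values without normalization. Also deposited are processed intensity values, made by the software's background subtraction and dye normalization, and a deposited ratio, the log10 of Cy5 over Cy3. The series matrix of the authors gives log2 ratios, and each array has its median at 0.

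Spot intensities were corrected with normexp (offset 50) on all spots and within each array the ratios were loess normalized (limma 3.58.1, R 4.3.3). The 1639 control spots had weight 0 in the loess fit and were then left out, and non-uniform and population outlier spots were set to missing. Spots were averaged per probe, which gave 41000 probes, of which 40248 had a value on all 30 arrays. Channel signals came from the same ratios after Aquantile normalization.

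Probes were tested with limma (lmFit and eBayes) on all 30 arrays with 1 coefficient for each time point and the cell line as a fixed block. P-values were adjusted over all probes by the method of Benjamini and Hochberg, with a call at an adjusted p under 0.05. The test against 0 had no block. The replicate number stands for the cell line and so pairs the arrays. Deviations from the time point means correlated between the 6 h and 30 min arrays of a line with r of 0.01 in HCC1419, 0.66 in MDA-MB-361, −0.10 in ZR-75-30, 0.20 in SK-BR-3 and −0.13 in HCC1954. Each line gave 1 pooled RNA per channel and time point. With the cell line as a block, p-values measure the spread left within lines over all 6 time points, as moderated by limma. Those of the test against 0, without a block, also hold the spread between lines. The number of lines, with 5 arrays per time point, limits the precision. The test was checked on simulated data.

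The comparison, the lists of genes and the naming rule were chosen with earlier results of these data known. Named were ID1 to ID4, SMAD6 and SMAD7, listed genes that were called, the called rises, the 5 falls with the smallest p, the called probes with the widest range, the 5 probes with the smallest p in the other comparisons where they had a name, and 13 genes from the top of the study's ranking beside the ID genes, of which 12 were measured. Lists use the brightest probe of a gene. Other genes were named after their values were seen. Design names were updated through RefSeq by accession for 23958 probes, by symbol for 2755 and by synonym for 1032, and 13255 probes kept no gene symbol. GPR30 became GPER1, FAM46C TENT5C and C1orf129 MROH9. Alternatives were other background corrections and normalizations, the software's log ratio, the series matrix, a filter that dropped probes well above background on 15 arrays or fewer, array weights, an intensity trend with robust prior, slide or scan day as a block, no cell line block, only the arrays compared, and leaving out each line. A fit with a fixed block for each combination of cell line and scan day, called scan day below, was chosen after seeing the data. So were a fit without the 12 h arrays and one without the SK-BR-3 30 min array.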

Additional observations from a re-analysis of the deposited data

Results flagged for a closer look

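In 4 of the 44 probes examined, 1 line stood apart from the other 4 in its difference between 6 h and 30 min, by Dixon's test, which chance alone passes in about 1 of 20 groups. The LRIG1 difference was −0.0586 in MDA-MB-361 against −0.33 in the nearest other line. The TENT5C difference was 0.14 in HCC1954, where the nearest other line had −0.42. The MROH9 difference was −0.0441 in HCC1419 and −0.21 in the nearest line. The RHOBTB3 difference was 1.22 in MDA-MB-361 and 0.76 in HCC1954, the nearest.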

How the results depend on the processing

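All 12 probes called higher at 6 h kept their direction under all 19 alternatives, and each was called in 8 to 16 of them. The count of 12 moved to 2 with no replicate block, 0 with a single factor per array instead of loess (158 at an unadjusted p under 0.05), 30 with array weights (1 lower), 5 with an intensity trend, 0 with only the arrays of both time points (964 at an unadjusted p under 0.05 in limma) and 4 with scan day in the model, and it lay between 0 and 12 when 1 line was left out. Of the comparisons that called 0, 6 h against 1 h gave 1 higher probe without background subtraction, 4 with the series matrix, 4 with array weights (2 lower) and 1 with scan day, and 0 to 1 in either direction without 1 line. For 6 h against 3 h 1 lower probe was called without the 12 h arrays. For 24 h against 6 h, 2 higher probes were called with the series matrix, the software's log ratio, no background subtraction or no SK-BR-3 30 min array, 9 with array weights, 1 with scan day and 0 to 1 without 1 line.

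The 57 higher and 15 lower probes against 0 became 5 and 0 with 1 factor per array, 100 and 25 without background subtraction, 172 and 83 with array weights, 2 and 0 with only the arrays compared, 168 and 44 with the replicate block, and 21 to 45 and 2 to 7 without 1 line. The higher count was 99 with the series matrix and 101 with the software's log ratio, and the lower was 2 with an intensity trend. Probes higher in every line numbered 2387 to 3072 and those lower 1805 to 2222 when 1 line was left out. The lower count was 305 with 1 factor per array and 476 with the filter on dim probes. Probes at 2-fold or more in at least all lines but 1 numbered 7 without background subtraction, 12 with the series matrix, 11 with the software's log ratio and 3 to 10 without 1 line. At least 1.5-fold higher in every line were 8 with the software's log ratio and with the matrix and 5 to 9 without 1 line, and 1 was lower with the software's log ratio. The mean number of probes at 2-fold per 6 h array was 116.4 with 1 factor per array, 827.4 with the series matrix and 807.6 with the software's log ratio. The median of the BMP target genes was 0.64 and 0.62 with these 2 and 0.35 to 0.48 without 1 line.

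Differences near 0 in the reported fit that changed sign were those of APOC2 (−0.0183 with 1 factor per array, −0.0286 with scan day and −0.0342 to 0.0372 without 1 line), ZFP41 (−0.0247 to 0.0708 without 1 line), C12orf42 (−0.0658 with 1 factor per array, but 0.99 with the matrix and 0.96 from the software's log ratio) and DNER (0.0170 without background subtraction, 0.33 with the matrix, 0.30 from the software's log ratio and −0.116 to 0.00836 without 1 line). The cause of these shifts was not tested. The probes of APOC2, C12orf42 and DNER were well above background in either channel on only 10, 11 and 15 of the 30 arrays.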

Other observations

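Some genes outside the called set had a different order of lines in their differences between 6 h and 30 min. KRT19, a keratin of luminal epithelium, had 0.64 in HCC1419, −0.18 in MDA-MB-361, 0.59 in ZR-75-30, 0.50 in SK-BR-3 and 0.10 in HCC1954. SKIL, a corepressor of SMADs, had 0.87, 0.65, 0.10, 0.78 and 0.17 in the same order. Neither was called (limma adjusted p = 1.00 each), and both were picked after their values were seen.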
